A study of Caenorhabditis elegans with 45 samples.

Results

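The col genes of Caenorhabditis elegans were taken as every protein-coding gene of the deposited count table whose symbol starts with col-. The rule gave 156 genes among 19985 protein-coding genes and 46926 genes in all. Of these 156 col genes, 128 had enough counts to be tested, among 16053 genes tested. The other 28 were at most at 0.436 TPM (transcript abundance scaled by transcript length and to the same sum in each library) on average over all libraries, with at most 20 counts in any library, and 2 of them had no count anywhere. The symbols were taken as the count table gives them, so col-99, a transmembrane collagen known from axon guidance, is included although it is not a cuticle component. The cuticle collagens with other names (rol, dpy, sqt, bli and the like) are outside the rule.

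RNA was measured in whole young adult hermaphrodites collected 6 h after the L4 stage, from 300 to 500 picked animals per sample, grown on OP50 bacteria at 20 °C in 20% oxygen. The 9 genotypes had 5 biological replicates each, lettered A to E. They were N2 (wild type), egl-9(sa307), egl-9(sa307) with hif-1(ia4), and the strains smg-1(n6597) and smg-2(r863), each alone, with egl-9(sa307), and with both egl-9(sa307) and hif-1(ia4). The strain with egl-9 and hif-1 mutated is called egl-9 hif-1, a smg mutation with egl-9 the smg-1 or smg-2 double mutant, and a smg mutation with egl-9 and hif-1 the smg-1 or smg-2 triple mutant. The 3 genotypes without a smg mutation have intact nonsense-mediated decay, each genotype is 1 strain, and what else differs between the strains cannot be told apart from the named alleles.

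The nematode cuticle is an extracellular coat made largely of small collagens that the epidermis secretes anew at every moult. The collagen genes are switched on in waves within each moulting cycle, with different sets in larvae, dauer larvae and adults. Before secretion the chains are hydroxylated on proline by an enzyme with the alpha subunits DPY-18 and PHY-2, folded into triple helices and trimmed by proteases. Afterwards they are cross-linked through tyrosines with the help of the dual oxidase BLI-3. The transcription factor HIF-1 is destroyed in oxygen after hydroxylation by the enzyme EGL-9, so egl-9 mutants hold HIF-1 active in normal air. SMG-1, a kinase, and SMG-2, a helicase, are needed for nonsense-mediated decay, which removes RNAs with premature stop codons.

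Libraries held between 9822412 and 33169699 counts (median 16917459), of which all 156 col genes together took 4.61% to 8.37%. The egl-9 and hif-1 genotypes were checked on the mutated genes' own RNA, as counts scaled to equal library size (CPM). The egl-9 RNA lay between 95.1 and 129 CPM in the 15 libraries with egl-9 mutated and hif-1 intact, and at most at 28.3 CPM in all others. Where egl-9 and hif-1 were both mutated it was at 12.2 to 27.8 CPM, against 13.7 to 28.3 CPM without an egl-9 mutation. The egl-9 label of those genotypes could thus not be checked by RNA level. The hif-1 RNA was at 15.8 to 36.04 CPM in egl-9 hif-1, at 248 to 392 CPM in both triple mutants, and at 141.7 to 220 CPM in the 30 libraries without a hif-1 mutation. Counts per gene do not show which exons were read, so the hif-1 deletion itself was not checked in the triple mutants. The smg labels could not be checked by RNA level. The smg-1 RNA was at 83.2 to 142.5 CPM with intact decay, 229 to 484 CPM in the smg-1 genotypes and 161 to 352 CPM in the smg-2 genotypes, and the smg-2 RNA was at 42.6 to 108 CPM in the smg-2 genotypes and 63.7 to 117 CPM in all others, so neither set its own mutants apart. Libraries of 1 genotype differed by more than counting error in all 90 replicate pairs (chi-square per degree of freedom 4.89 to 88.5). In such whole-animal samples, fewer cells of a type and less RNA per cell cannot be told apart.

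Most of the collagen RNA came from few genes. By mean level over the 45 libraries, the highest were col-124 at 3749 TPM, col-140 at 3315 TPM, col-93 at 3185 TPM, col-20 at 3163 TPM, col-119 at 2971 TPM, col-122 at 2855 TPM, col-19 at 2622 TPM and col-181 at 2524 TPM. These 8 genes held 41.3% of the TPM of all col genes, and the 16 highest held 69.5%. In all, 52 col genes were at 100 TPM or more, 43 at 5 TPM to under 100 TPM, and 61 under 5 TPM, of which 33 were tested. The plot of ranked levels shows a plateau of very abundant genes followed by a steady decline.

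**Figure D1:**
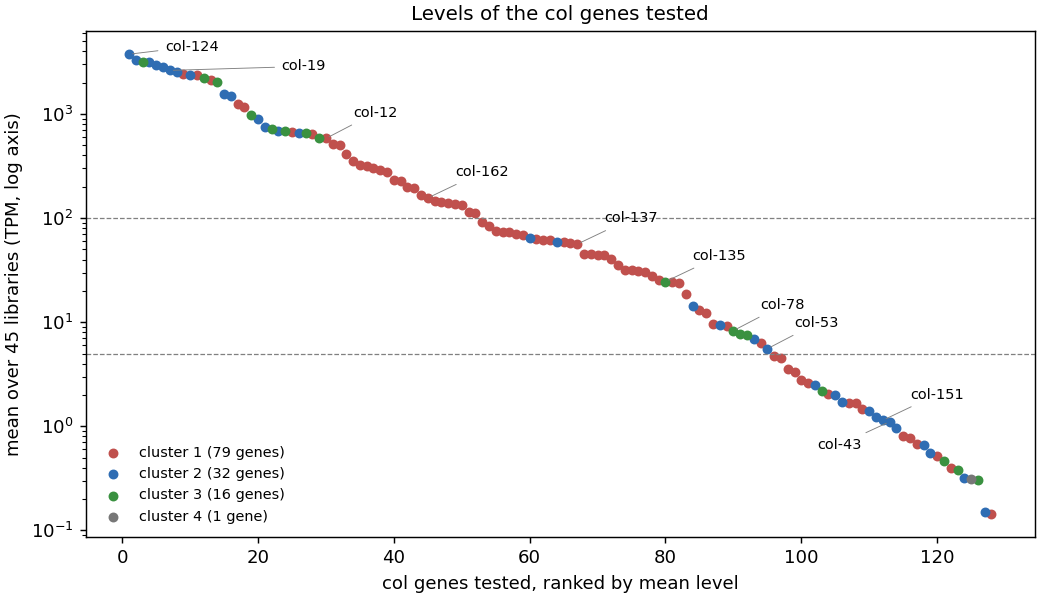
Mean level of each of the 128 tested col genes over the 45 libraries (TPM, log axis), ranked from highest to lowest, with the dashed lines at 5 and 100 TPM and the colour giving the cluster described in the text. The highest gene, col-124, is at 3749 TPM, and genes of cluster 2 fill most of the top ranks while cluster 1 fills most of the middle.

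As a share of all TPM, the col genes together were lowest in N2, at 5.22% ± 0.39 (SD, n = 5), and highest in the smg-1 double mutant, at 6.56% ± 0.78 (SD, n = 5). The egl-9 libraries were at 5.71% ± 0.43 and the egl-9 hif-1 libraries at 6.12% ± 0.61 (SD, n = 5 each). The ranges of these genotypes overlapped, since N2 reached 5.69% and the lowest egl-9 library was at 5.10%. The 16 most abundant genes held 4.07% ± 0.30 of all TPM in N2 and 3.56% ± 0.52 in egl-9 (SD, n = 5 each), again with overlapping ranges. The genes under 100 TPM differed by a larger factor. Their summed level was 702 ± 201 TPM in N2 and 2308 ± 1089 TPM in egl-9 (SD, n = 5 each), and the N2 maximum of 1013 TPM lay under the egl-9 minimum of 1157 TPM.

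With egl-9 lost and HIF-1 active, the collagen genes moved apart from each other. Against N2, 60 of 128 col genes were higher in egl-9 (11.9% of all genes tested were) and 19 were lower (21.8% of all). A gene counts as higher or lower where edgeR's quasi-likelihood test gave a Benjamini-Hochberg adjusted p under 0.05 over all genes tested. The median log2 difference of the col genes was 1.02, against -0.03 for all genes tested, and their 25th and 75th percentiles were -0.05 and 2.01, against -0.40 and 0.21. By level, 28 of the 52 abundant genes were higher and 13 lower, 26 of the 43 genes of the middle range were higher and 2 lower, and 6 of the 33 low genes were higher and 4 lower.

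The egl-9 hif-1 strain, which lacks HIF-1 as well, was compared with both. Against egl-9, 22 col genes were higher in egl-9 hif-1 (26.7% of all genes were) and 5 were lower (20.0% of all), with a median log2 difference of 0.15 against 0.05 over all genes. With DESeq2's size factors in place of the main scaling, the median of all genes moved to -0.05 and the split was 16 higher and 7 lower. Against N2, the egl-9 hif-1 strain still had 63 col genes higher (9.65% of all genes) and 3 lower (4.85% of all), with a median of 1.04 against 0.00. Without egl-9 hif-1 replicate C this comparison called 37 col genes in place of 66. It shares the N2 libraries with that of egl-9.

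Loss of nonsense-mediated decay alone also went with higher collagen RNA. In smg-1 against N2, 76 col genes were higher (28.8% of all genes were) and 4 lower (24.3% of all), with a median log2 difference of 1.27 against 0.11 for all genes. In smg-2 against N2, 58 were higher (24.3% of all genes) and 9 lower (19.6% of all), with a median of 1.01 against 0.07. Without smg-2 replicate C the smg-2 comparison called 42 col genes in place of 67. Both comparisons use the same N2 libraries as those of egl-9, and N2 had the lowest genotype mean for 70 of the 128 col genes (54.7%) against 13.3% of all genes tested. The egl-9 strain had the lowest mean for 23 col genes (against 27.4% of all genes).

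In animals that already lacked a smg gene, losing egl-9 gave another picture. The smg-1 double mutant against smg-1 had 13 col genes higher (25.1% of all genes) and 17 lower (25.3% of all), with a median log2 difference of -0.18 against -0.02. The smg-2 double mutant against smg-2 had 9 higher (19% of all genes) and 12 lower (21.9% of all), with a median of -0.19 against -0.02. Removing hif-1 from the smg-1 double mutant left 7 higher (24.0% of all genes) and 23 lower (25.7% of all), with a median of -0.19 against -0.02. In the smg-2 background the same step gave 32 higher (28.4% of all genes) and 11 lower (29.2% of all), with a median of 0.20 against 0.05.

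**Figure D2:**
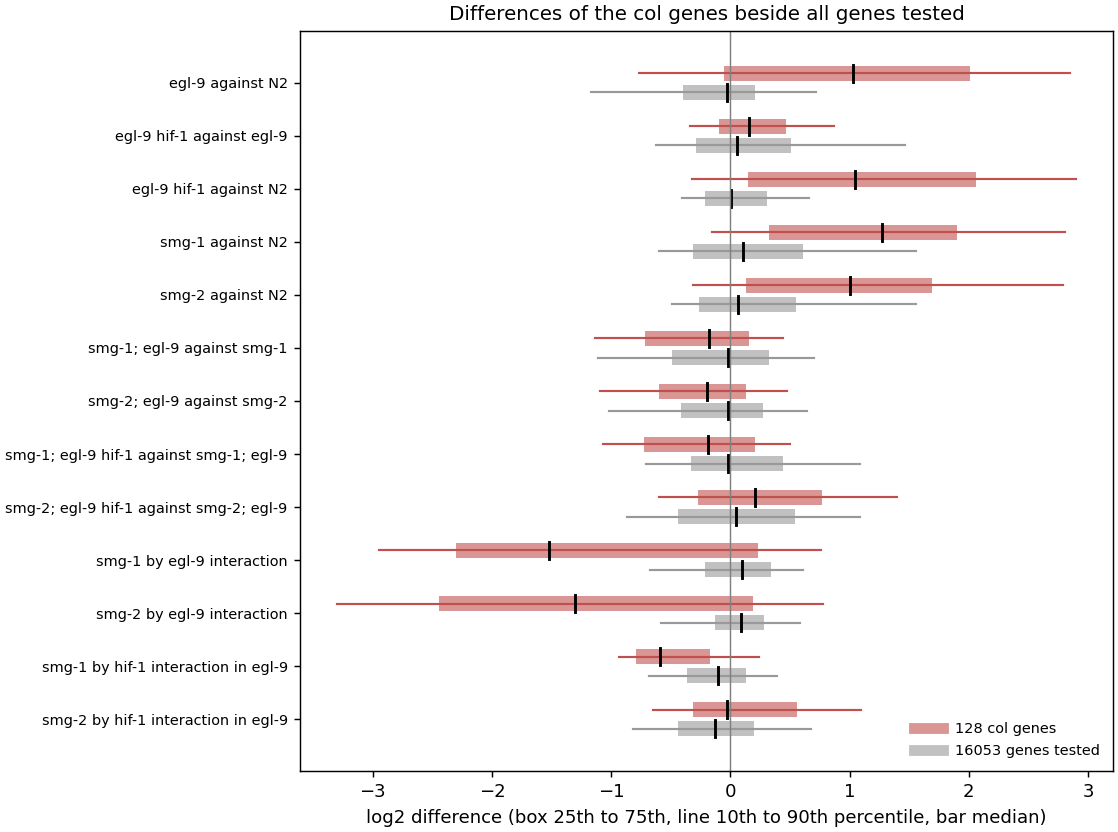
Log2 differences of the 128 tested col genes (red) and of all 16053 genes tested (grey) in the 9 pair comparisons and 4 interactions, with the median (black bar), the 25th to 75th percentile (box) and the 10th to 90th percentile (line). The col genes stand to the right of all genes in the 4 comparisons with N2, at medians of 1.01 to 1.27, and to the left in both egl-9 interactions, at -1.53 and -1.30.

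The difference between the egl-9 effect with and without decay was tested as an interaction, the log2 effect of egl-9 in a smg mutant minus that in animals with intact decay. For smg-1 it was negative in 43 col genes (3.15% of all genes were) and positive in 15 (5.78% of all), with a median of -1.53 against 0.09 for all genes. For smg-2 it was negative in 34 (1.96% of all genes) and positive in 6 (1.69% of all), with a median of -1.30 against 0.09. Without smg-1 replicate C the first count was 29 in place of 58, and without smg-2 replicate C the second was 7 in place of 40. The smg-2 count also fell to 14 without egl-9 replicate B, to 17 and 19 without smg-2 double mutant replicates D and E, and to 21 and 23 without N2 replicates E and B, and the smg-1 count to 33 without egl-9 replicate B and 38 without smg-1 double mutant replicate E. Both interactions use the same N2 and egl-9 libraries, so their results are not independent of each other. This holds for the interactions of single genes too, and N2 had the lowest genotype mean for 70 of the 128 col genes.

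The effect of hif-1 loss in egl-9 was compared between backgrounds in the same way. Both of these interactions use the same egl-9 and egl-9 hif-1 libraries. The smg-1 interaction with hif-1 was negative in 14 col genes (2.82% of all genes) and positive in 0 (0.766% of all), with a median of -0.59 against -0.11, and 34 col genes had an unadjusted p under 0.05 in either direction. All 14 were among the 52 abundant genes, such as col-122 at -0.87 (SE 0.16, adjusted p = 0.00066), col-184 at -0.91 (SE 0.18, adjusted p = 0.000929) and col-106 at -0.73 (SE 0.15, adjusted p = 0.00162) in log2. The smg-2 interaction with hif-1 was negative in 7 (15.4% of all genes) and positive in 2 (4.75% of all), with a median of -0.03 against -0.13. Both counts moved by more than 1.5 times with the scaling, the test or a left-out library, and with DESeq2's size factors they were 5 and 3, the latter split into 2 positive and 1 negative.

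Clustering the genotype means of the 128 genes (average linkage on 1 minus Pearson's r, 4 clusters) gave groups of 79, 32 and 16 genes and a single gene, col-64, whose exons overlap mom-4 on the same strand. The clusters are a description of these values and were not tested. Because the genes were grouped by these genotype means, the levels, overlaps and calls given below for each cluster follow in part from the grouping. Within genotypes, the median SD of a gene over replicates was 0.91 in log2 CPM in the first cluster, 0.31 in the second and 0.28 in the third, against 0.28 over all genes tested. The first cluster was therefore far more variable between samples of 1 genotype than the others.

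**Figure D3:**
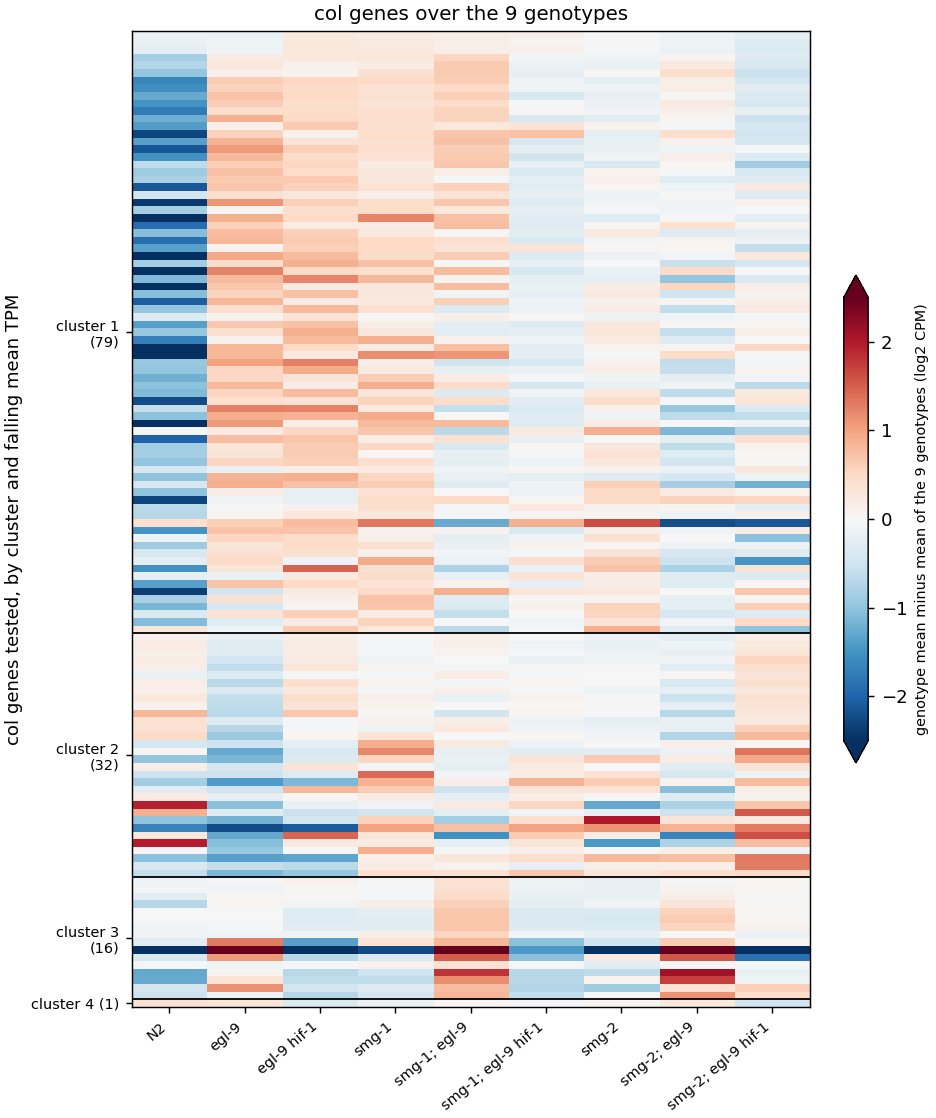
Genotype mean of each of the 128 tested col genes minus its mean over the 9 genotypes (log2 CPM, red higher, blue lower, colours saturated at 2.5), ordered by cluster and falling mean TPM. Cluster 1 is low in N2 (median -1.07), cluster 2 is low in egl-9 (median -0.63), and cluster 3 is high in the smg-1 double mutant (median 0.70) and the smg-2 double mutant (median 0.55).

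The first cluster, of 30 abundant, 33 middle and 16 low genes, was low in N2 and higher in all 8 mutant genotypes. Its summed level was 7841 to 12495 TPM in N2, 17594 to 29347 TPM in egl-9, 13110 to 31954 TPM in egl-9 hif-1 and 13923 to 33009 TPM in smg-1. The mean log2 CPM over its genes was 4.02 ± 0.35 in N2, 5.72 ± 0.60 in egl-9, 5.73 ± 0.94 in egl-9 hif-1, 5.67 ± 0.77 in smg-1 and 5.36 ± 0.79 in smg-2 (SD, n = 5 each). In the summed level, the smg-2 libraries began at 11337 TPM and the smg-2 triple mutant at 10595 TPM, so both overlapped N2. Replicate D had the lowest mean log2 level of this cluster in 8 of 9 genotypes and replicate C the highest in 5.

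**Figure D4:**
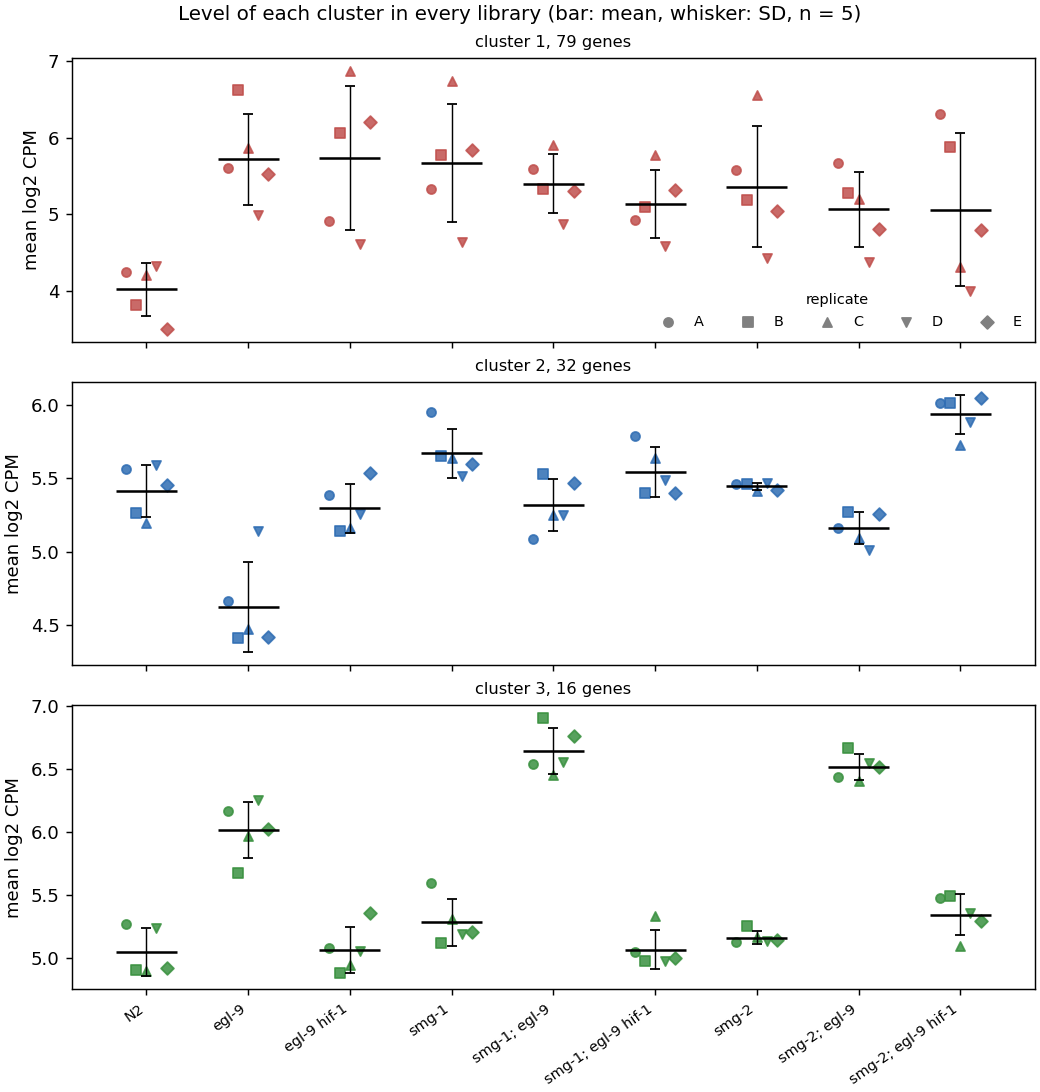
Mean log2 CPM over the genes of clusters 1, 2 and 3 in every library, with symbols for replicates A to E, the genotype mean (bar) and SD (whisker, n = 5). Cluster 1 is at 4.02 ± 0.35 in N2 and 5.72 ± 0.60 in egl-9, and replicate D is its lowest library in 8 of 9 genotypes.

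The gene col-12 (chromosome V, 10423898 to 10425198, minus strand, WBcel235) shows the pattern at a high level. It was at 245, 138, 239, 99.3 and 180 TPM in N2 replicates A to E, and at 826, 1188, 911, 521 and 666 TPM in egl-9. It was at 469, 712, 1331, 304 and 741 TPM in egl-9 hif-1, and at 672, 719, 1176, 320 and 698 TPM in smg-1. No library of these mutants reached down to N2. The log2 difference was 2.09 in egl-9 (SE 0.40, adjusted p = 4.49e-05), 2.17 in egl-9 hif-1 (adjusted p = 0.000251), 1.97 in smg-1 (adjusted p = 6.71e-05) and 1.54 in smg-2 (adjusted p = 0.00138), and in smg-2 the lowest library, at 207 TPM, lay within the N2 range. Loss of egl-9 added 0.05 in the smg-1 background and 0.18 in the smg-2 background, neither past the test, and the interactions were -2.05 (SE 0.55, adjusted p = 0.0178) and -1.91 (SE 0.55, adjusted p = 0.0368). Its neighbour col-13 (V, 10420788 to 10421902), whose overexpression is known to lengthen life, was at 50.6 to 146 TPM in N2 and at 156 TPM or more in all other libraries.

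The largest rises among col genes with at least 5 CPM were in genes that were low in N2. The gene col-137 (IV, 16601480 to 16602776, minus strand) was at 5.45, 3.45, 5.53, 0.61 and 2.99 TPM in N2, and at 78.5, 136, 93.3, 28.6 and 49.4 TPM in egl-9. In smg-1 it was at 77.1, 105, 215, 18.7 and 107 TPM, and its lowest library outside N2 was a smg-2 replicate D at 7.31 TPM. Every N2 library thus lay under all 40 mutant libraries, while within a mutant genotype replicate D was always the lowest. The log2 difference was 4.32 in egl-9 (SE 0.74, adjusted p = 8.75e-06), 3.97 in egl-9 hif-1 (adjusted p = 0.000258), 4.83 in smg-1 (adjusted p = 1.06e-06) and 3.89 in smg-2 (adjusted p = 3.05e-05). The egl-9 interaction was -4.70 with smg-1 (SE 0.95, adjusted p = 0.00251) and -4.25 with smg-2 (SE 0.95, adjusted p = 0.00533). Without smg-2 replicate C the log2 difference of smg-2 from N2 was 2.93 and the smg-2 interaction -3.36.

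The gene col-162 (V, 13441961 to 13443419) was at 28.9, 19.5, 25.5, 21.4 and 9.39 TPM in N2 and at 262, 521, 362, 93.4 and 201 TPM in egl-9. It was at 103, 228, 415, 33.8 and 210 TPM in egl-9 hif-1 and at 137, 94.5, 389, 27.01 and 67.3 TPM in smg-2. Replicate D of smg-2 lay inside the N2 range, and the other smg-2 libraries above it. The log2 difference was 3.66 in egl-9 (SE 0.70, adjusted p = 5.08e-05) and 2.78 in smg-2 (SE 0.68, adjusted p = 0.00088). Other large rises against N2 were those of col-91, col-88, col-156, col-126 and col-120. For col-91 the log2 difference was 4.09 in egl-9, 3.66 in egl-9 hif-1, 3.44 in smg-1 and 3.06 in smg-2, with adjusted p between 5.08e-06 and 0.000217. For col-120, another gene known for longer life when overexpressed, it was 3.50, 3.41, 3.06 and 3.16. The smg-2 difference was 2.20 for col-91 and 2.17 for col-120 without smg-2 replicate C, and the smg-1 difference of col-91 was 2.85 without smg-1 replicate C.

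The rise can also be read library by library in col-150 of the same cluster. The gene col-150 (V, 10293563 to 10294649) was at 20.1, 18.3, 23.1, 9.68 and 18.7 TPM in N2 and at 55.9, 81.9, 71.3, 47.1 and 63.2 TPM in egl-9. Its lowest value in any mutant library was 25.5 TPM, above all of N2. The log2 difference was 1.73 in egl-9 (SE 0.25, adjusted p = 5.61e-07), 1.83 for smg-1 and 1.17 for smg-2, and the egl-9 interactions, at -2.17 with smg-1 (SE 0.35, adjusted p = 0.000102) and -1.94 with smg-2 (SE 0.35, adjusted p = 0.000444), had the smallest p among col genes at 5 CPM or more. In all, 4 col genes (col-13, col-94, col-137 and col-150) had every N2 library under all 40 others, as did 0.262% of all genes tested, and 0 had every N2 library above them, as did 0.0498%.

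The cells and stages in these samples were described by lists of marker genes. Moulting genes (10 genes, such as the astacin protease nas-36) against N2 had 2 higher and 0 lower with egl-9 lost, 1 and 0 with hif-1 lost too, and 2 and 0 in smg-1 as in smg-2. Of all genes tested, 11.9%, 9.65%, 28.8% and 24.3% were higher in these 4 comparisons. The protease nas-36, needed to shed the old cuticle, was the gene called in all 4, at log2 differences of 2.11, 1.81, 1.81 and 1.69, and the others were mlt-10 in egl-9 (1.86) and mlt-9 in smg-1 (1.21) and smg-2 (1.34). The summed level of the moulting list was 78.8 to 113 CPM in N2 and 92.4 to 184 CPM in egl-9. It ranged from 59.3 to 169 CPM in egl-9 hif-1, 75.2 to 202 CPM in smg-1 and 92.2 to 169 CPM in smg-2, so all 4 overlapped N2. Its part in the collagen rise was not tested.

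Markers of the epidermis, the tissue that makes the cuticle, were counted in the same way. Against N2, 0 of 9 epidermis markers were higher and 1 lower with egl-9 lost, and in each smg single mutant 1 was higher and 2 lower, shares close to or under those of all genes. With hif-1 lost too, 0 passed the test by edgeR, 0 had an unadjusted p under 0.05 and 0 passed by DESeq2. The summed level of the list was 168 to 222 CPM in N2, 191 to 202 CPM with egl-9 lost and 163 to 209 CPM with hif-1 lost too. Oocyte markers (5 genes) were lower in 5 of 5 for both smg single mutants (24.3% and 19.6% of all genes were). Their summed level was 1288 to 2628 CPM in smg-1 and 1522 to 3059 CPM in smg-2, against 3970 to 4899 CPM in N2. In egl-9 the oocyte markers were at 4565 to 5116 CPM, with 0 of 5 called against N2 by edgeR, 0 at an unadjusted p under 0.05 and 0 by DESeq2, and the first cluster was at a mean log2 CPM of 5.72 there and 5.67 in smg-1. In the smg backgrounds, egl-9 loss raised 5 of 5 oocyte markers with either smg mutation, and in the smg-2 triple mutant against the double mutant 5 of 5 fell. The part of the epidermis and oocyte markers in the collagen values was not tested.

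The second cluster, of 32 genes, holds 8 of the 10 most abundant col genes and was low in egl-9. Its summed level was 30151 to 34283 TPM in N2 and 17987 to 29030 TPM in egl-9, with no overlap, and 28755 to 35854 TPM in egl-9 hif-1. In the smg-1 double mutant it was 25572 to 34720 TPM, which overlapped smg-1 at 26672 to 33921 TPM. The highest genotype was the smg-2 triple mutant, at 30947 to 44430 TPM. All 19 col genes lower in egl-9 than N2 came from this cluster, as did 19 of the 22 that were higher after hif-1 loss.

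The gene col-8 (III, 7019583 to 7020600, minus strand) had the largest fall in egl-9 among col genes with at least 5 CPM. It was at 1420, 1491, 1399, 1570 and 1359 TPM in N2 and at 693, 346, 512, 762 and 557 TPM in egl-9. It was at 1270, 1157, 887, 1648 and 1118 TPM in egl-9 hif-1, with replicate D above all N2 libraries and the other 4 below them. The egl-9 libraries were the lowest and did not overlap either genotype. The log2 difference was -1.47 for egl-9 against N2 (SE 0.15, adjusted p = 4.24e-10) and 1.31 for egl-9 hif-1 against egl-9 (SE 0.15, adjusted p = 3.17e-09). It was already lower without egl-9 loss in smg-1 (-0.83) and smg-2 (-0.85), and egl-9 loss took off another 0.45 and 0.67 there, with interactions of 1.02 for smg-1 (SE 0.22, adjusted p = 0.00411) and 0.80 for smg-2 (SE 0.22, adjusted p = 0.0255). Exons of col-8 overlap lgc-38 on the other strand, and since the use of strand in counting is not given in the sources used here, reads of the overlap cannot be told apart.

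Others of the second cluster fell less. The log2 difference for egl-9 against N2 was -1.30 for col-101, -1.23 for col-95, -0.96 for col-143, -0.84 for col-106 and -0.81 for col-181. Against egl-9, egl-9 hif-1 was higher by 0.92 for col-101, 1.01 for col-106, 1.05 for col-181, 0.96 for col-184 and 0.91 for col-122. For col-106 the levels were 1788 ± 256 TPM in N2, 1086 ± 198 TPM in egl-9 and 1852 ± 144 TPM in egl-9 hif-1 (SD, n = 5 each), with no overlap of egl-9 with either. The most abundant gene, col-124, fell by 0.32 (adjusted p = 0.024) from 3958 ± 264 TPM to 3450 ± 425 TPM, a call that DESeq2's Wald test did not make (adjusted p = 0.0781), and col-140 by 0.50 and col-119 by 0.60 in log2. Exons of col-124 overlap qns-1 and those of col-143 overlap T15B7.15, both on the other strand.

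Sperm markers, like this cluster, were lower in egl-9 than in N2 and higher again with hif-1 lost too. Of 7 sperm markers, 7 were lower in egl-9 than N2 (21.8% of all genes were), with summed levels of 127 to 282 CPM against 307 to 524 CPM. Loss of hif-1 raised 7 of them (26.7% of all genes were higher), to 461 to 669 CPM. In the smg-1 background 7 of 7 were lower with egl-9 loss and in the smg-2 background 6 of 7, at 200 to 367 CPM and 186 to 238 CPM in the double mutants. Of all genes tested, 25.3% and 21.9% were lower there. The summed level of the cluster overlapped, at means of 30291 TPM in smg-1 and 29642 TPM in its double mutant. The means were 27083 TPM in smg-2 and 27155 TPM in its double mutant. Of the 32 genes of the cluster, 12 and 9 were lower with egl-9 loss and 0 higher. In the smg-2 triple mutant, where the cluster was highest, the sperm markers were at 281 to 395 CPM, within or under the range of N2. Their part in the collagen values was not tested.

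The third cluster, of 16 genes, was high in the smg double mutants. Its summed level was 12618 to 18525 TPM in the smg-1 double mutant and 12227 to 15496 TPM in the smg-2 double mutant, against 9650 to 12485 TPM in smg-1 and 8445 to 9983 TPM in smg-2. In egl-9 it was 9713 to 13736 TPM and in N2 8331 to 10463 TPM. The pattern is carried at high level by col-42 (V, 18638484 to 18639591), col-98 (III, 13019008 to 13020226) and col-103 (IV, 762413 to 763678, minus strand).

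The gene col-42 was at 673, 658, 700, 646 and 655 TPM in N2 and at 798, 487, 693, 988 and 803 TPM in egl-9. It was at 673, 506, 539, 694 and 535 TPM in smg-1 and at 1019, 1299, 880, 1052 and 1088 TPM in the smg-1 double mutant. It was at 501, 595, 399, 657 and 499 TPM in smg-2 and at 927, 1194, 1057, 1195 and 1110 TPM in the smg-2 double mutant. The egl-9 libraries lay on both sides of N2, while those of each double mutant lay above all of their smg parent. The log2 effect of egl-9 was 0.05 with intact decay (SE 0.15, adjusted p = 0.832), 0.93 in smg-1 (SE 0.15, adjusted p = 2.67e-06) and 0.93 in smg-2 (SE 0.15, adjusted p = 4.34e-06), and the interactions were 0.88 (SE 0.21, adjusted p = 0.00881) and 0.87 (SE 0.21, adjusted p = 0.0118). Removing hif-1 lowered it by 1.02 in the smg-1 double mutant and by 0.52 in the smg-2 double mutant.

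Both col-98 and col-103 went the same way. The interactions were 0.99 (adjusted p = 0.00538) and 1.00 (adjusted p = 0.00429) for col-98, and 0.94 (adjusted p = 0.00867) and 0.79 (adjusted p = 0.0357) for col-103. For col-98 the levels were 629 ± 35.4 TPM in N2, 693 ± 162 TPM in egl-9, 539 ± 72.1 TPM in smg-1 and 1023 ± 123 TPM in the smg-1 double mutant (SD, n = 5 each). Exons of col-103 overlap gst-40 on the other strand.

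The gene col-78 (II, 9152531 to 9154336) was seen almost only where HIF-1 was active. It was at 0 TPM in all 5 N2 libraries and at 9.54, 8.27, 12.8, 8.83 and 10.1 TPM in egl-9. In egl-9 hif-1 it was at 0 TPM in 4 libraries and at 0.06 TPM in the fifth. All 15 libraries with egl-9 mutated and hif-1 intact lay above the 30 others, as for 1.32% of all genes tested, and col-78 was the only col gene of the 128 tested with that separation. Taking 3 counts per library as the floor, it was at least 54.3-fold higher in egl-9 than N2. With 2 counts over the 5 egl-9 hif-1 libraries against 785 in egl-9, the depth-corrected ratio of egl-9 to egl-9 hif-1 was 423 (exact 95% interval 117 to 3501, counting error only).

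Without decay, col-78 reached higher levels. It was at 24.9, 30.6, 28.6, 32.8 and 37.7 TPM in the smg-1 double mutant, and at 26.6, 33.8, 34.0, 36.05 and 36.8 TPM in the smg-2 double mutant. All 10 of these lay above the egl-9 maximum of 12.8 TPM. It was at most at 0.18 TPM in smg-1 and smg-2, and at most at 0.09 TPM in the smg-2 triple mutant. In the smg-1 triple mutant, replicate C stood apart at 1.48 TPM, with the others at 0.05 to 0.10 TPM. The ratio of the smg-1 double mutant to smg-1 was 505 by summed counts (3446 against 6, interval 232 to 1378), and that of the smg-2 double to its triple mutant was 884 (2888 against 3, interval 302 to 4291).

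The genes col-135 and col-110 also followed HIF-1, from a higher base, and col-172 did so at a low level. The gene col-135 (IV, 15129655 to 15131797, minus strand) was at 16.1, 20.7, 13.4, 17.3 and 15.1 TPM in N2, at 54.8, 32.7, 51.0, 64.6 and 65.5 TPM in egl-9, and at 7.01, 7.40, 2.83, 16.5 and 6.82 TPM in egl-9 hif-1. The egl-9 libraries were above both, and in egl-9 hif-1 replicate D reached into the N2 range. The log2 difference was 1.59 for egl-9 against N2 (SE 0.23, adjusted p = 5.38e-07) and -2.52 for egl-9 hif-1 against egl-9 (SE 0.24, adjusted p = 2.37e-11). It was -0.93 for egl-9 hif-1 against N2 (SE 0.23, adjusted p = 0.00605, but 0.089 when only those genotypes were fitted). In the smg-2 background, hif-1 loss lowered it by 0.60 only, an interaction of 1.92 (SE 0.33, adjusted p = 2.64e-05).

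For col-110 (IV, 4608201 to 4609668, minus strand) the levels were 4.17 ± 0.96 TPM in N2, 12.6 ± 2.6 TPM in egl-9 and 3.21 ± 1.07 TPM in egl-9 hif-1 (SD, n = 5 each). The egl-9 libraries, from 8.66 to 15.99 TPM, overlapped neither. In the smg-2 background it was at 18.1, 21.98, 15.4, 17.1 and 16.3 TPM in the double mutant and at 10.3, 0.95, 0.99, 1.16 and 0.54 TPM in the triple mutant, where replicate A stood apart. The log2 difference of that pair was -2.72 with replicate A (SE 0.43, adjusted p = 1.1e-06) and -4.18 without it. Exons of col-110 overlap nspg-10 on the other strand.

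The gene col-172 (X, 6672819 to 6674423) was low, at 0.60, 0.60, 0.33, 0.82 and 0.47 TPM in N2 and at 1.23, 2.00, 1.97, 0.66 and 2.18 TPM in egl-9, where replicate D fell among the N2 values. It was at 4.70, 4.01, 4.18, 7.98 and 4.24 TPM in the smg-1 double mutant and at 5.55, 4.41, 7.48, 7.84 and 9.23 TPM in the smg-2 double mutant. Those 10 libraries were above every library of the smg single mutants, which reached at most 1.48 TPM. The log2 effect of egl-9 was 1.52 with intact decay (adjusted p = 0.0017), 2.41 in smg-1 and 2.77 in smg-2. The interactions, of 0.88 and 1.24, did not pass the test (adjusted p = 0.287 and 0.216). For hif-1 loss the log2 difference was -2.54 in the smg-1 background (SE 0.34, adjusted p = 9.29e-08). In the smg-2 background it was -2.18 (SE 0.34, adjusted p = 8.61e-07). With intact decay, its mean log2 CPM relative to all 9 genotypes was 0.06 in egl-9, -0.69 in egl-9 hif-1 and -1.28 in N2.

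The opposite pattern belonged to col-43 (V, 8049703 to 8050911, minus strand), at a low level. It was at 0.65, 1.54, 1.09, 1.00 and 0.72 TPM in N2, at 0.36, 0.28, 0.16, 0.34 and 0.34 TPM in egl-9, and at 1.58, 1.77, 2.35, 2.68 and 2.43 TPM in egl-9 hif-1. All 15 libraries with HIF-1 active lay under the 30 others, as for 1.56% of all genes, and col-43 was the only col gene of the 128 tested to do so. The counts behind it were small, at most 84 in any library and at most 8 in egl-9 and both double mutants. The log2 difference for egl-9 loss was -1.89 with intact decay (SE 0.31, adjusted p = 4.28e-06), -2.18 in smg-1 and -2.27 in smg-2. For hif-1 loss in egl-9 it was 3.17, 2.51 and 3.78 in the same order, the first with SE 0.29 and adjusted p = 1.12e-11.

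**Figure D5:**
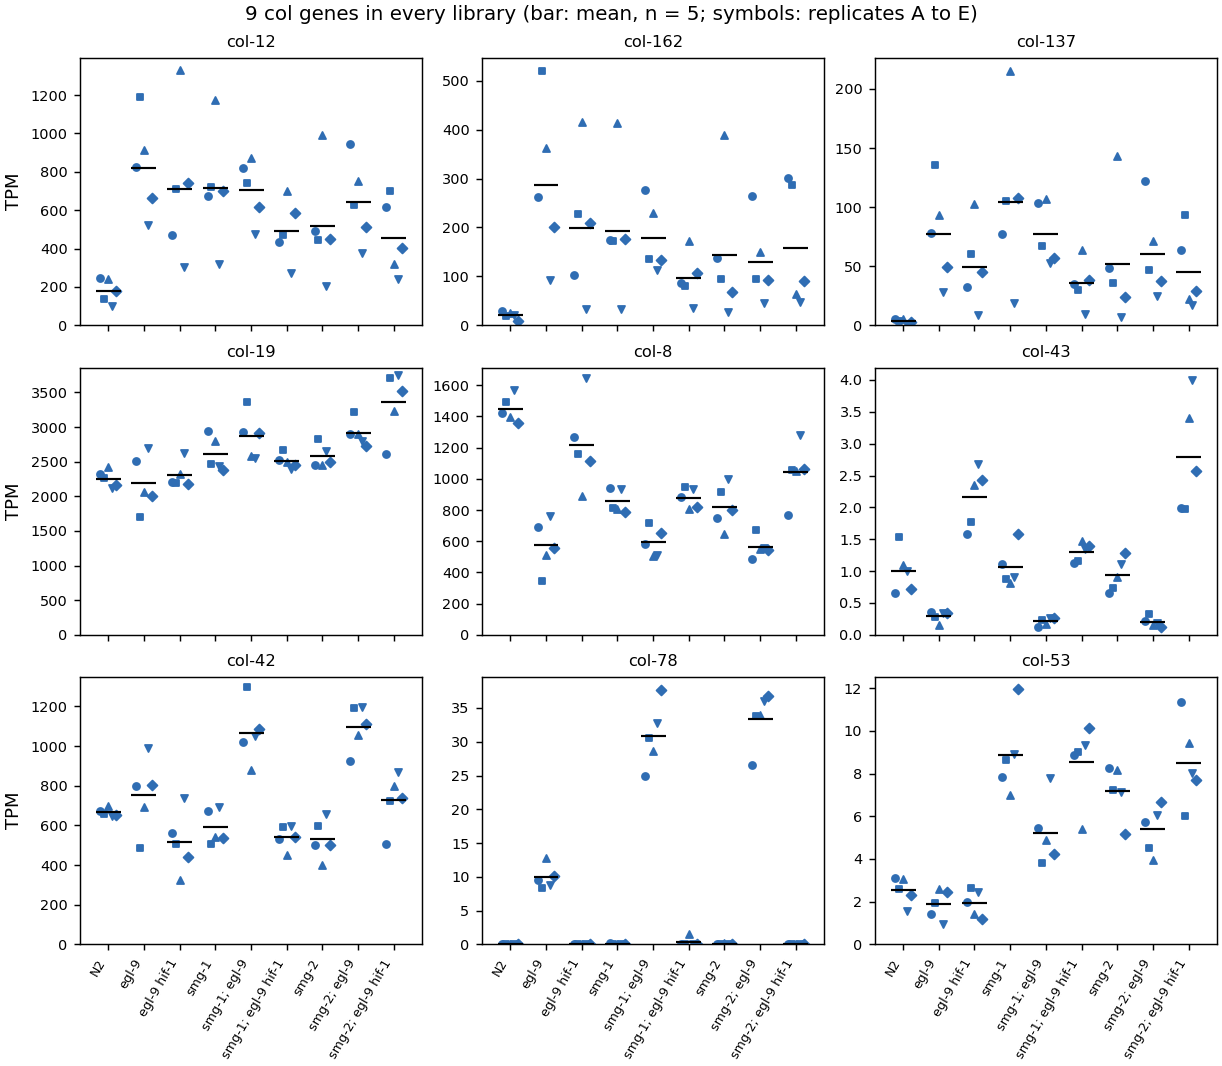
Level (TPM) of 9 col genes in every library, with circles for replicate A, squares for B, upward triangles for C, downward triangles for D, diamonds for E and a bar at the genotype mean (n = 5). The genes col-12, col-162 and col-137 are low in N2, col-8 and col-43 are lowest with HIF-1 active, col-42 is high in the smg double mutants, col-78 is above 8 TPM only with HIF-1 active, and col-53 is higher without decay.

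Of the 128 genes, 2 had every library without decay above all 15 libraries with it, as did 5.67% of all genes tested, and 0 had them all below, as did 0.125%. The gene col-53 (I, 5644729 to 5646370) was at 3.11, 2.58, 3.04, 1.57 and 2.33 TPM in N2, at 7.84, 8.62, 7, 8.93 and 12.0 TPM in smg-1 and at 8.25, 7.25, 8.19, 7.13 and 5.17 TPM in smg-2. No library with intact decay was above 3.11 TPM, and none without it was under 3.80 TPM. The log2 difference against N2 was 1.76 in smg-1 (SE 0.20, adjusted p = 1.72e-09) and 1.50 in smg-2 (SE 0.20, adjusted p = 6.49e-08). Exons of col-53 overlap F55F8.2 on the other strand. The gene col-151 (V, 10393531 to 10395223, minus strand) was at 0.17, 0.13, 0.41, 0 and 0.27 TPM in N2 and at 1.50, 1.66, 1.77, 1.50 and 1.68 TPM in smg-1, with log2 differences of 3.03 for smg-1 (SE 0.39) and 3.17 for smg-2 (SE 0.38).

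The falls in the smg mutants against N2 were few and mostly small. In smg-2 they were col-74 (-4.76), col-165 (-4.63), col-158 (-1.14), col-8 (-0.85), col-179 (-0.60), col-140 (-0.40), col-98 (-0.38), col-106 (-0.31) and col-124 (-0.27) in log2. For col-74 the N2 levels were 8.12, 0.43, 0.04, 2.04 and 1.21 TPM, so replicate A held most of the level, exons of col-74 overlap gtap-1 on the other strand, and col-165 had its N2 maximum of 12.6 TPM in the same library. In smg-1 they were col-158 (-1.40), col-8 (-0.83), col-143 (-0.51) and col-153 (-0.25). The calls of col-98, col-106, col-140 and col-124 in smg-2 and of col-143 and col-153 in smg-1 were lost under at least 1 other setting or left-out library, including a filter at 5 CPM for all 6.

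Genes known as stage markers were taken one by one. The adult gene col-19, a target of LIN-29 (X, 421707 to 422691), was at 2318, 2271, 2419, 2115 and 2163 TPM in N2 and at 2507, 1706, 2070, 2703 and 2009 TPM in egl-9, which lay on both sides of N2 (log2 difference -0.16, SE 0.12, adjusted p = 0.31). It was highest in the smg-2 triple mutant, at 2614, 3707, 3239, 3757 and 3520 TPM. The adult gene col-7 (I, 7401132 to 7402761) was at 67.3, 33.4, 66.1, 12.5 and 50.7 TPM in N2 and at 135, 118.8, 127, 111 and 92.7 TPM in egl-9, all above N2, with log2 differences of 1.27 in egl-9, 1.90 in egl-9 hif-1 and 1.73 in smg-1. The gene col-62 was at 125 ± 55.1 CPM in N2 and 327 ± 49.3 CPM in egl-9 (SD, n = 5 each), with no overlap, and rose by 1.38 in egl-9 (SE 0.32, adjusted p = 0.00054) and by 2.06 in egl-9 hif-1.

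The larval gene col-17 was at 22.2 ± 6.4 TPM in N2 and 32.1 ± 19.2 TPM in egl-9 (SD, n = 5 each), a log2 difference of 0.38 that did not pass the test (SE 0.64, adjusted p = 0.697). With egl-9 loss it was lower by -1.62 in smg-1 (adjusted p = 0.0348) and -1.71 in smg-2 (adjusted p = 0.0325), and both calls were lost without replicate D in every genotype and without several single libraries, while without smg-2 double mutant replicate B the smg-2 value was -2.48. The gene col-14 rose by 2.03 in egl-9. The genes col-10 and col-13, known with col-120 for longer life when overexpressed, rose by 1.56 and 2.19 in egl-9. Of the dauer genes, col-2 had at most 6 counts in a library and was not tested, and col-6 was not analysed here. The transmembrane col-99 was at 2.23 ± 0.38 TPM in N2 and 1.83 ± 0.27 TPM in egl-9 (SD, n = 5 each), a log2 difference of -0.43 (adjusted p = 0.0365, and 0.0649 by DESeq2's Wald test), and its exons overlap daf-1 on the other strand.

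The col genes lie on all 6 chromosomes, with 21 on I, 24 on II, 12 on III, 41 on IV, 31 on V and 27 on X. In the reference annotation 21 groups of col genes lay within 10 kb of each other, the largest being the 5 genes from col-167 to col-171 on X (6323488 to 6335221). Of the 16 groups with at least 2 tested genes, 11 had all of them in the same cluster and 5 did not. The first cluster alone holds 79 of the 128 tested genes, and the count expected whatever the position was not computed. The 4 tested genes from col-167 to col-170 were all in the first cluster, as were col-12 with col-13, and col-144, col-145 and col-10. By contrast, of the neighbours col-92, col-93 and col-94 on III (10982139 to 10987873), col-92 was in the first cluster and the other two in the third. Exons of 37 col genes overlap another gene, 7 of them on the same strand, among them col-159 with col-160, whose split of reads is uncertain. Summed exon length had a median of 996 bases in the first cluster, 1052 in the second and 1039.5 in the third.

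Of the other genes of the collagen pathway, phy-2, dpy-18 and let-268 moved with HIF-1. Of 12 collagen processing genes, 5 were higher and 0 lower in egl-9 than in N2 (11.9% and 21.8% of all genes). The prolyl 4-hydroxylase subunit gene phy-2 was at 20.3 ± 2.5 CPM in N2, 223 ± 41.2 CPM with egl-9 lost and 21.1 ± 4.5 CPM with hif-1 lost too (SD, n = 5 each), log2 differences of 3.45 (SE 0.14, adjusted p = 5.69e-23) and -3.40. The other subunit gene, dpy-18, differed by 2.53 and -1.86, and let-268, for the lysyl hydroxylase, by 1.09 and -0.83. The remaining rises in egl-9 were doxa-1, for a maturation factor of the dual oxidase (1.02), and the peroxidase gene mlt-7 (0.98). Both of these were also higher than N2 after hif-1 loss, at 0.83 and 1.28, and were higher in smg-1 and smg-2 too.

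Loss of hif-1 in egl-9 left 2 processing genes higher, phy-3 (0.60) and the tolloid-like protease gene dpy-31 (0.34), and 3 lower. Of all genes tested, 26.7% were higher and 20.0% lower in that comparison. The counts of higher and lower processing genes against N2 were 4 and 0 in egl-9 hif-1 (9.65% and 4.85% of all genes). They were 6 and 1 with smg-1 lost (28.8% and 24.3% of all) and 7 and 0 with smg-2 lost (24.3% and 19.6% of all). With egl-9 loss they were 3 and 1 in the smg-1 background and 3 and 0 in the smg-2 background. Both egl-9 interactions were negative in 3 processing genes, phy-2 (-1.06 and -1.17), doxa-1 (-1.21 and -1.15) and mlt-7 (-1.32 and -1.31), and positive in 0. Of all genes tested, 3.15% were negative and 5.78% positive with smg-1, and 1.96% and 1.69% with smg-2. The beta subunit gene pdi-2 did not pass the test in egl-9 against N2 (log2 difference 0.04, adjusted p = 0.833).

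Of 14 epidermal and heterochronic regulators, 2 were higher with egl-9 lost (hbl-1 by 1.01 and lin-28 by 0.27 in log2) and 2 lower (dbl-1 by -0.49 and elt-3 by -0.31). In egl-9 hif-1 against N2, 1 was higher (blmp-1, by 0.54) and 0 lower (9.65% and 4.85% of all genes were). In the smg-1 strain 3 were higher and 2 lower, in the smg-2 strain 4 and 2, with blmp-1, a transcription factor of the moulting cycle, at 0.60 and 0.72. These counts are near or under the background, since of all genes tested 11.9% were higher and 21.8% lower in egl-9, 28.8% and 24.3% with smg-1 lost, and 24.3% and 19.6% with smg-2 lost. With hif-1 lost from egl-9, 3 regulators were higher and 3 lower (26.7% and 20.0% of all genes were). Among the higher were blmp-1 by 0.75 and elt-3 by 0.51.

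Of markers for other tissues, 0 of 7 intestine markers were higher and 3 lower in egl-9 than in N2, 2 of 6 body wall muscle markers were higher and 0 lower, 0 of 3 pharynx markers were higher and 1 lower, and 0 of 4 neuron markers passed the test by edgeR, with 0 at an unadjusted p under 0.05 and 0 by DESeq2. Of 5 germline markers, 1 was lower in egl-9 and 4 in each smg single mutant, with 0 higher in these comparisons. Of all genes tested, 11.9% were higher and 21.8% lower in egl-9, and DESeq2's Wald test called 1 intestine marker higher and 2 lower and 0 germline markers there. Their part in the collagen values was not tested.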

How the data were processed

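Polyadenylated RNA was sequenced with a strand-specific kit in 45 libraries, and samples were grouped by the genotype in their labels. The authors deposited counts per gene as whole numbers, and separately log2(TPM + 1) values of the same genes, from which TPM was computed back. The submitters' processing notes name FastQC, STAR 2.7.9a, RSEM 1.3.0, DESeq2 and WBcel235, with no role or order, and the use of strand in counting is not given in the sources used here. Coordinates and exon overlaps came from Ensembl release 115 (WBcel235). Counts were tested with edgeR 4.0.16 (quasi-likelihood, TMM scaling, filterByExpr) in R 4.3.3, in 1 model with 9 genotype means over all 45 libraries (36 residual degrees of freedom, biological coefficient of variation 0.198), with p-values two-sided and adjusted over all 16053 genes tested. CPM used a prior count of 2 on the log2 scale. The procedure was tested on simulated data.

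Alternatives were DESeq2 1.42.0 and its size factors, limma 3.58.1 on the deposited log2 values, other filters, only the genotypes compared, the replicate letter as a block, and each library left out. Genes named were those with the highest levels, the largest called differences among genes with at least 5 CPM in a genotype compared, the smallest p in each interaction, and a fixed set of known genes. The col genes and the lists (collagen processing, moulting, regulators, and markers of epidermis, intestine, muscle, pharynx, neurons, germline, oocytes and sperm) were chosen with earlier results of these data known. The single genes shown library by library were partly chosen after their values were seen. Protein identity between col genes was not analysed here. Floors of 3 counts per library cover counting error only.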

Additional observations from a re-analysis of the deposited data

Results flagged for a closer look

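Among 190 groups of 5 libraries checked for a single library far from the others, 8 had one, and chance alone gives about 1 in 20. For col-7, egl-9 replicate E was low at 138.57 CPM, with the others at 189 to 211 CPM. For col-78, egl-9 replicate C was high at 12.2 CPM (others 8.21 to 8.86 CPM), and replicate A of the smg-2 double mutant was low at 24.8 CPM (others 31.8 to 34.1 CPM). For col-42, replicate A of the smg-2 triple mutant was low at 516 CPM (others 760 to 863.1 CPM), and for col-8, N2 replicate D was high at 1650.5 CPM (others 1239 to 1268 CPM). For col-101, smg-1 replicate D was high at 1040.05 CPM (others 726 to 774 CPM), and for col-53, replicate C of the smg-1 triple mutant was low at 5.33 CPM (others 7.51 to 8.25 CPM). The col genes' share of TPM was high in egl-9 hif-1 replicate C, at 7.18% (others 5.64% to 5.96%).

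Other effects differed between backgrounds, as log2 values of an interaction in edgeR. The effect of egl-9 differed with smg-1 by -2.17 for col-150 (adjusted p = 0.000102), -2.39 for col-169 (adjusted p = 0.00226) and -4.70 for col-137 (adjusted p = 0.00251). With smg-2 it differed by -1.94 for col-150 (adjusted p = 0.000444), 1.00 for col-98 (adjusted p = 0.00429) and -4.25 for col-137 (adjusted p = 0.00533). The effect of hif-1 loss in egl-9 differed with smg-1 by -0.87 for col-122, -0.91 for col-184 and -0.73 for col-106, with adjusted p of 0.00066, 0.000929 and 0.00162. With smg-2 it differed by 1.92 for col-135 (adjusted p = 2.64e-05), -0.97 for col-147 (adjusted p = 0.00434) and -0.59 for col-139 (adjusted p = 0.0208), and the last lost its call in 12 of the alternatives and left-out libraries and col-147 without egl-9 hif-1 replicate C or E.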

How the results depend on the processing

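The counts of col genes called in the 9 pair comparisons and both egl-9 interactions stayed within 1.5 times under each alternative that kept all libraries. The smg-1 by hif-1 interaction had 14 calls and gave 7 with DESeq2's Wald test, 5 with its size factors, 7 with limma on the deposited log2 values, 4 with no filter, 2 with only the genotypes compared and 22 with the replicate block. The smg-2 by hif-1 interaction had 9 and gave 3 with the Wald test, 3 with size factors, 2 at a mean of 5 CPM and 4 with no filter. With single libraries left out, the counts ranged from 37 to 74 for egl-9 hif-1 against N2, 42 to 73 for smg-2 against N2, 29 to 67 and 7 to 52 for the egl-9 interactions with smg-1 and smg-2, and 3 to 22 and 2 to 9 for those with hif-1. The labels do not say that a letter marks a shared batch, and the letters were not taken as pairs because only 24 of 45 correlations of same-lettered deviations were over 0.1 (range -0.34 to 0.42), though some letters moved together (the low replicate D of the first cluster). The replicate block gave 80 calls in egl-9 against N2 in place of 79. Leaving out replicate D of every genotype, chosen after seeing the data, gave 90 there and 24 in the smg-1 by hif-1 interaction. Of 574 values of named genes under the alternatives 549 kept their call and 25 lost it, and of 1033 with a library left out 969 kept it and 64 lost it, with 0 reversed. The cause of these changes was not tested. Low counts limit col-43, col-151 and col-172.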
